A study of Homo sapiens with 6 samples.

Results

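The 78 protein-coding genes described here encode the linker and core histones and their variants, and were picked by symbol from the 46427 genes measured in the K562 libraries. Of these, 65 are replication-dependent genes, named H1-1 to H1-5 or by the prefixes H2AC, H2BC, H3C and H4C. Another 10 encode replacement variants (among them H1-10, H2AZ1, H2AZ2, H2AX, H2AJ, H3-3A, H3-3B, MACROH2A1 and MACROH2A2), and the last 3 encode germline linker histones (H1-6, H1-7 and H1-8). K562 is an established human erythroleukemia line, labelled wild type. It was cultured for 24 h with 10 µM HR-19011 (a compound the labels give by code), or with 0.1% DMSO as vehicle, and each group had 3 libraries. The labels do not give the DMSO content of the HR-19011 cultures, and do not say that the 3 libraries of a group were grown apart. The p-values therefore reflect the spread between these libraries alone, which may be technical. The comparison asks how the RNA of HR-19011 cells differed from that of vehicle cells.

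Core histones H2A, H2B, H3 and H4 form the protein spool around which DNA is wound in a nucleosome, and linker histone H1 binds where the DNA enters and leaves it. Replication-dependent histone genes sit in clusters, are transcribed mainly during S phase, and give mRNAs that typically end in a conserved stem-loop instead of a poly(A) tail. Replacement variants come from single genes, mostly with ordinary polyadenylated mRNAs, and are laid down outside replication as well. Because the libraries were made from polyadenylated RNA, a replication-dependent gene contributes here mainly through those of its transcripts that carry a poly(A) tail. Carry-over of RNA without a tail was not tested, and the amount of stem-loop mRNA cannot be read from these libraries. The same limit applies to H2AX, a replacement variant whose annotated transcripts also hold the stem-loop.

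The stem-loop and its flanks are shown for 6 members on which the results below turn, 1 of which, H2AX, is a replacement variant. They were read 5′ to 3′ from GENCODE release 29 transcripts on GRCh38, with the stem-loop in capitals and 5 flanking bases on each side in lower case. H2AC6 lies at chr6:26124172-26124690, H2BC4 at chr6:26113170-26123926, H2BC15 at chr6:27838569-27839110, H3C10 at chr6:27810051-27810536, H4C8 at chr6:26285126-26285534 and H2AX at chr11:119093874-119095465, by the RefSeq annotation of that build.
H2AC6: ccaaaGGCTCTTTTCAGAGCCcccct
H2BC4: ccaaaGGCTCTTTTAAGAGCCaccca
H2BC15: acaacGGCTCTTTTCAGAGCCaccta
H3C10: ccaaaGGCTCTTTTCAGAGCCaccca
H4C8: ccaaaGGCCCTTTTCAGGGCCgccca
H2AX: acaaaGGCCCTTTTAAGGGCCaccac

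The letters of the histone stem-loop, a 16-base run that begins with GG, ends with CC, holds TT and A at set places and has stem bases able to pair, lay after the stop codon in 28 of the 65 replication-dependent genes, in 1 of the 10 replacement genes (H2AX) and in none of the 3 germline linker genes. Of the 37 replication-dependent genes without them, 34 had fewer than 40 bases annotated after the stop codon, so the window that could hold the letters was missing in that annotation. For comparison, 273 of 19702 protein-coding genes (1.39%) held the letters anywhere in a coding transcript. The commonest form, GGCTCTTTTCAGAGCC, was shared by 15 members of the H2A, H2B and H3 families, and 4 H4 genes (H4C2, H4C5, H4C8 and H4C11) shared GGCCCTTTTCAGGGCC. The form in H2AX was found in no other member. Annotated transcripts ran on after the stem-loop for 821 to 1044 bases in H2AX, 1114 to 1128 in H2AC6, 769 in H3C10 and 18 to 1655 in H4C8.

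Values are FPKM, fragments normalized to transcript length and library size, as the authors deposited them, and their read depth is unknown. Over all genes they summed to 461938 ± 5487 (SD, n = 3) in vehicle libraries and to 423885 ± 3632 after HR-19011. All 12 K562 marker genes stood at 1 FPKM or more in every library, and their summed level was 10063 to 10244 FPKM in vehicle and 4314 to 4542 in HR-19011 libraries. Of 14 markers of T cells, B cells, fibroblasts and epithelium, 2 (CD3D and EPCAM) reached 1 FPKM in any library and 3 (CD2, MS4A1 and KRT5) were listed at 0 in all. Those 14 summed to 39.4 to 42.0 FPKM in vehicle and 32.5 to 34.8 in HR-19011 libraries. CD3D was higher in HR-19011 (mean 7.40 and 11.9 FPKM, limma adjusted p = 0.000504) and EPCAM lower (32.5 and 20.3, limma adjusted p = 1.54e-06), and the part of any cell mixture in the results was not tested. Most of the transcriptome moved: limma with Benjamini-Hochberg adjustment called 84.4% of the 11856 tested genes, 38.0% lower and 46.4% higher in HR-19011, with a median log2 fold change of 0.07. Scaling by TMM, the trimmed mean of log ratios, shifted that median by -0.213, and the 4503 lower and 5506 higher calls became 5983 and 4098. The shifts were -0.125 with quantile normalization and 0.121 with TPM.

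Summed over each class, histone transcripts were lower after HR-19011, by a larger ratio in the replication-dependent genes than in the replacement variants. The 65 replication-dependent genes summed to 1295, 1300 and 1352 FPKM in the vehicle libraries and to 757, 752 and 730 in the HR-19011 libraries. That is 1316 ± 31.4 against 747 ± 14.3 (SD, n = 3), a 1.76-fold lower level, and no HR-19011 library reached the vehicle range. The replacement variants summed to 1144, 1117 and 1137 FPKM in vehicle and to 796, 791 and 778 in HR-19011, a 1.44-fold lower level (1133 ± 14 against 788 ± 9.12), again with no overlap. Both sums were lower under TMM scaling and TPM too. The replication-dependent share of the histone FPKM was 53.7% ± 0.607 in vehicle and 48.6% ± 0.199 in HR-19011 (SD, n = 3), and no library of a group entered the range of the other. In bulk RNA, fewer cells in S phase and less histone RNA per cell cannot be told apart. The replication-dependent sum covers mainly polyadenylated transcripts, so a change in that part of their RNA cannot be told apart either. These sums are descriptions without a test, since an exact permutation of 3 against 3 libraries cannot go below p = 0.1.

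**Figure D1:**
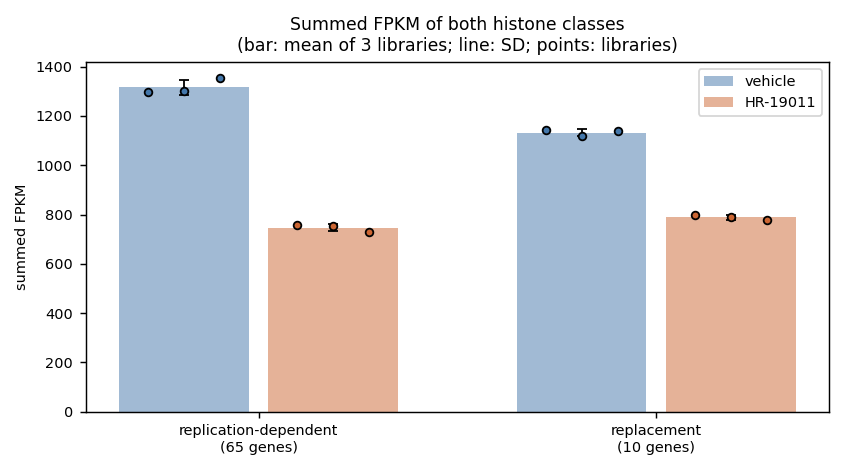
Summed FPKM of the 65 replication-dependent and the 10 replacement histone genes. Bars are means of 3 libraries, lines are SD and points are single libraries; in both classes the HR-19011 points lie below all vehicle points.

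Gene by gene, 43 of the 78 members averaged 1 FPKM or more across the 6 libraries and were tested, 36 replication-dependent and 7 replacement. Among the 36, limma called 25 lower and 3 higher and left 8 without a call, against a background of 38.0% lower and 46.4% higher (84.4% in either direction) among all tested genes. Their median log2 fold change was -0.53, with a range from -1.50 to 1.11. All 7 replacement genes tested were called lower, with a median of -0.44 and a range from -1.13 to -0.27. The groups did not overlap in 28 of the 36 and in 7 of the 7, where the background over all tested genes was 85.2%. Log2 fold changes were taken after adding 1 to each FPKM, which makes the change of weakly expressed genes look smaller. H1-4, H2BC13 and H3C14 passed the filter although their HR-19011 mean was under 1 FPKM. Among the 33 replication-dependent genes with both means at 1 FPKM or more, 22 were called lower, 3 higher and 8 neither. At least 2-fold lower calls on that scale came to 4 of the 36 and 1 of the 7, against 6.45% of all tested genes, and 1 of the 36 was at least 2-fold higher, against 12.0%. The lower count depended on the scale, for the members and for all tested genes. It was 11 of 36 under TMM scaling (1325 of 11856 over all tested genes). With a pseudocount of 0.1 it was 6 of 36 (974 of 11856), and with a pseudocount of 5 it was 1 of 36 (411 of 11856). None of the 7 replacement genes passed with quantile normalization (910 of 11856).

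**Figure D2:**
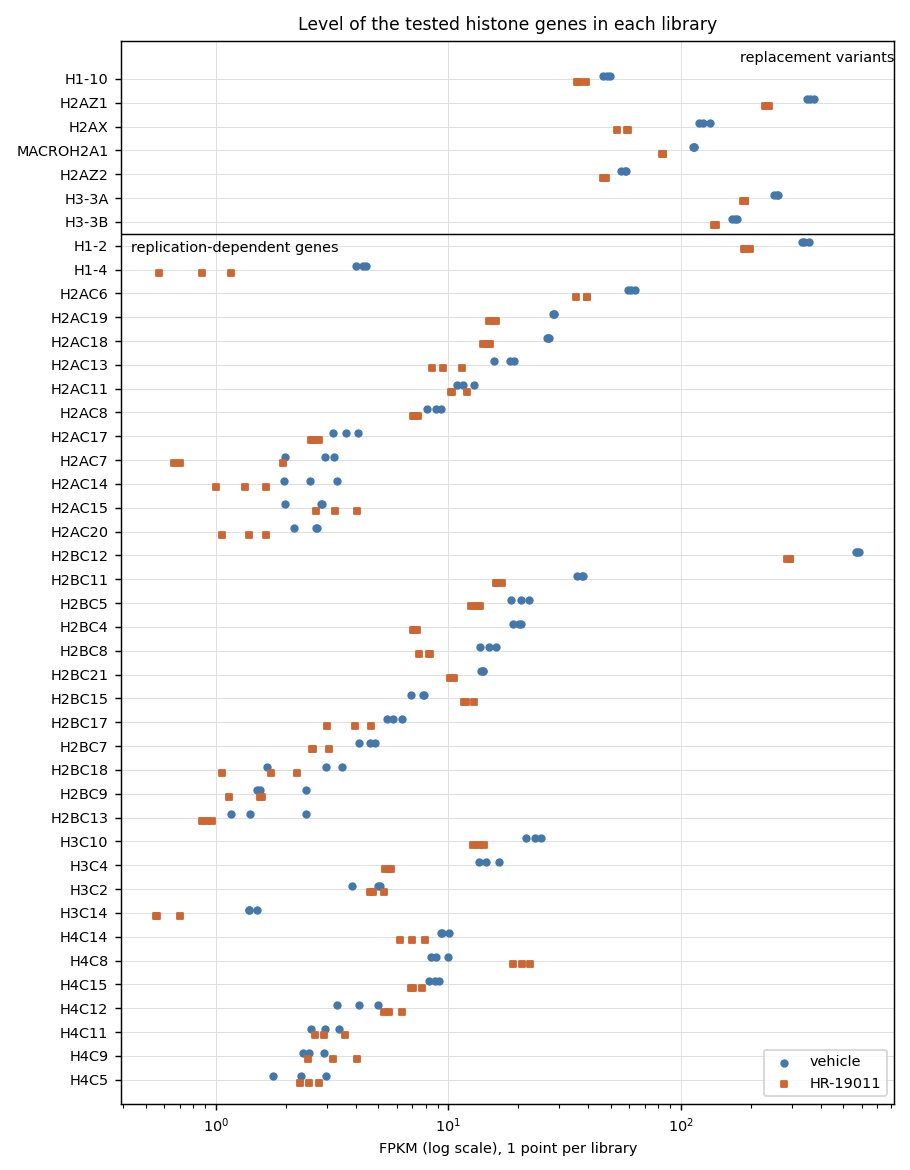
FPKM of each of the 43 tested histone genes in every library (log axis, 1 point per library), with the replacement variants above the line. H2BC12 and H1-2 stand far above the other replication-dependent genes, and the HR-19011 points lie to the left of the vehicle points in most rows but to the right in H4C8, H2BC15 and H4C12.

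Many of these genes are near copies of one another. The share of 50-base windows of a gene's transcripts found in another gene was at least 50% in 13 of the 36 tested replication-dependent genes, and the sources used here do not say how reads with several matches were assigned. Not all of this sharing is between near copies. H3C4 and H2AC7 shared windows most often with the annotated gene AL031777.3, and H2AC17 with H3C12, an H3 gene. Of the 13, 11 were called lower, 1 higher and 1 neither, against 38.0% lower and 46.4% higher over all tested genes. Among the 23 below that share, 14 were called lower, 2 higher and 7 neither, with a median of -0.46. For the main sets of near copies, sums are therefore given beside the single genes.

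Linker histone transcripts were dominated by H1-2, the main replication-dependent subtype in these libraries. H1-2 (chr6:26055740-26056470) stood at 337, 332 and 357 FPKM in vehicle and at 198, 188 and 186 in HR-19011. Every HR-19011 library lay below every vehicle library, 1.79-fold on average (log2 fold change -0.84, SE 0.035, limma adjusted p = 3.23e-08). H1-4 (chr6:26156329-26157115), another replication-dependent linker, was far weaker, at 4.28, 4.01 and 4.43 FPKM against 0.876, 0.568 and 1.16. It fell 4.89-fold (log2 fold change -1.50, limma adjusted p = 1.15e-06), the lowest log2 fold change of the 43 tested members. H1-3 and H1-5 stayed below the filter. H1-3 stood at 0.731, 1.01 and 1.06 FPKM in vehicle and at 0.265, 0.283 and 0.470 in HR-19011, and H1-5 at 0.386, 0.877 and 0.504 against 0.0945, 0.0202 and 0.0586. Both were lower without overlap. H1-1, the remaining replication-dependent linker, was at most 0.0461 FPKM.

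H1-10, the replacement linker (also known as H1X), stood at 46.2, 49.4 and 48.0 FPKM in vehicle and at 39.0, 35.9 and 36.6 in HR-19011. It fell 1.29-fold without overlap (log2 fold change -0.36, limma adjusted p = 2.7e-05). The make-up of linker transcripts differed between the groups: H1-10 took 12.1% ± 0.566 of all H1 FPKM in vehicle and 16.2% ± 0.213 in HR-19011, and H1-2 took 86.4% ± 0.639 and 83.2% ± 0.367 (SD, n = 3), in both cases without overlap.

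Among replication-dependent H2A genes, 9 of 11 tested were lower, none was higher and 2 had no call. Over all tested genes, 38.0% were lower and 46.4% higher. The replication-dependent H2A genes summed to 171 ± 2.41 FPKM in vehicle and 107 ± 4.00 in HR-19011, 1.60-fold lower. H2AC6, the most abundant, stood at 59.1, 61.3 and 63.6 FPKM in vehicle and at 39.5, 39.5 and 35.6 in HR-19011, with no overlap (1.61-fold lower, log2 fold change -0.67, limma adjusted p = 9.97e-07). The near-identical pair H2AC18 and H2AC19, whose windows were shared to 100% and 97.1%, summed to 55.8, 54.9 and 55.2 FPKM in vehicle and to 31.2, 30.4 and 29 in HR-19011. Each of the pair was called lower at a log2 fold change of -0.83, and their sum was 1.83-fold lower. H2AC13, which shares 62.3% of its windows, stood at 15.8, 19.1 and 18.5 FPKM against 8.49, 11.4 and 9.51. Its fall was 1.81-fold (log2 fold change -0.80, limma adjusted p = 6.1e-05), and together with its near copy H2AC14 it summed to 20.4 ± 2.03 in vehicle and 11.1 ± 1.30 in HR-19011.

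The weaker H2A genes spread more widely. H2AC8 was lower at 7.04, 7.38 and 7.09 FPKM against 8.83, 8.08 and 9.32 in vehicle, a log2 fold change of -0.25. Lower calls of -0.34, -0.58, -0.62 and -0.86 were made for H2AC17 (86.3% of windows shared), H2AC20, H2AC14 and H2AC7, each with a vehicle mean between 2.53 and 3.63 FPKM. H2AC11 had no call: its libraries stood at 12.9, 10.9 and 11.5 FPKM in vehicle and at 10.3, 12 and 10.4 in HR-19011, so the groups overlapped (log2 fold change -0.10, limma adjusted p = 0.214). It was called lower under TMM scaling (limma adjusted p = 0.00236), with quantile normalization (0.0293) and without HR-19011 replicate 2 (-0.17, 0.0487), and it stood at -0.04 without vehicle replicate 1. H2AC15, at 2.87, 1.98 and 2.84 FPKM against 4.04, 2.70 and 3.26, overlapped as well and had a log2 fold change of 0.28 (limma adjusted p = 0.072). It was called higher in TPM (limma adjusted p = 0.028), among coding genes alone (0.0485) and without HR-19011 replicate 2 (0.0228), and turned negative with quantile normalization.

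H2B transcripts came mostly from a single gene, H2BC12 (chr6:27138293-27146858), which gave 81.5% ± 0.234 of H2B FPKM in vehicle and 78.9% ± 0.185 in HR-19011. It stood at 569, 574 and 585 FPKM in vehicle and at 296, 296 and 287 in HR-19011, 1.97-fold lower, with the smallest adjusted p of the tested members (log2 fold change -0.97, SE 0.0236, limma adjusted p = 1.31e-09). Its windows are shared to 74.1%, and its sum with the near copy H2BS1, which the symbol rule does not cover, was 585 ± 7.78 FPKM in vehicle and 297 ± 4.67 in HR-19011, also 1.97-fold lower. H2BC12 and H1-2 together made up 69.8% ± 0.151 of the replication-dependent FPKM in vehicle and 64.8% ± 0.453 in HR-19011. Without these 2 genes the replication-dependent sum was 398 ± 10.9 against 263 ± 5.75, 1.51-fold lower instead of 1.76.

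Of the 12 H2B genes tested, 9 were lower, 1 was higher and 2 had no call, against 38.0% lower and 46.4% higher over all tested genes. H2BC4 (chr6:26113170-26123926) fell furthest, from 20.2, 18.9 and 20.6 FPKM to 7.30, 7.08 and 7.15, a 2.77-fold difference without overlap (log2 fold change -1.35, limma adjusted p = 4.58e-09). H2BC11 (chr6:27132316-27132795) followed, at 37.8, 37.8 and 35.9 FPKM against 16.1, 16.1 and 17, 2.27-fold lower (log2 fold change -1.13, limma adjusted p = 6.49e-09). Neither is a near copy of another gene, with 6.63% and 4.65% of windows shared. H2BC8 at 15, 13.7 and 16 FPKM against 8.34, 7.46 and 8.27, H2BC5 at 18.5, 20.6 and 22.3 against 13.3, 13.7 and 12.5, and H2BC21 at 14.1, 13.9 and 14.1 against 10.2, 10.5 and 10.4 were lower as well. Their log2 fold changes were -0.82, -0.60 and -0.40. The weakly expressed H2BC7, H2BC17 and H2BC13 were called lower at -0.56, -0.50 and -0.45, the last of these losing its call without HR-19011 replicate 2 (limma adjusted p = 0.0542) and when no filter on low values was used (0.0872), and standing at -0.25 without vehicle replicate 1. H2BC18 (-0.46, limma adjusted p = 0.0675) and H2BC9 (-0.21, limma adjusted p = 0.151) had no call and overlapping groups. Leaving out vehicle replicate 1 brought H2BC18 to -0.68 (limma adjusted p = 0.0074), leaving out HR-19011 replicate 1 to -0.61 (0.0295), and under TMM scaling both genes were called lower (0.0213 and 0.0259).

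H2BC15 (chr6:27838569-27839110) went the other way. It stood at 7.86, 6.94 and 7.76 FPKM in vehicle and at 11.9, 11.7 and 12.9 in HR-19011, so that every HR-19011 library lay above every vehicle library. The difference was 1.62-fold (log2 fold change 0.63, SE 0.0564, limma adjusted p = 5.77e-06), and 3.52% of its windows are shared with other genes. It was called higher under every alternative tried, at log2 fold changes from 0.41 to 0.78. Its stem-loop letters, printed above, are those of H2AC6 and H3C10, which were lower.

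For H3, 4 of 13 replication-dependent genes were tested, 3 of them lower and 1 without a call. Over all tested genes, 38.0% were lower and 46.4% higher. The 13 genes summed to 48.5 ± 2.15 FPKM in vehicle and 26.0 ± 0.506 in HR-19011, 1.87-fold lower. H3C10 stood at 21.5, 25.2 and 23.7 FPKM against 12.8, 13.6 and 14.3, with no overlap and no shared windows (1.73-fold lower, log2 fold change -0.75, limma adjusted p = 2.91e-06). H3C4 (chr6:26196784-26199293) was 2.70-fold lower, at 14.5, 13.6 and 16.6 FPKM against 5.56, 5.66 and 5.33 (log2 fold change -1.28). The annotated span of H3C4 holds the whole of H2AC7 on the same strand, so their reads cannot be separated with confidence, and the sum of both was 17.6 ± 1.02 against 6.62 ± 0.791, 2.66-fold lower. The copies H3C13, H3C14 and H3C15 summed to 4.29, 4.03 and 4.00 FPKM in vehicle and to 1.47, 1.51 and 1.76 in HR-19011, 2.60-fold lower without overlap. They straddled the filter, with means over the 6 libraries of 1.01 for H3C14 just inside it and 0.941 and 0.889 for H3C15 and H3C13 just outside. H3C2 had no call, at 4.99, 3.86 and 5.08 FPKM against 5.29, 4.75 and 4.59 (log2 fold change 0.06, limma adjusted p = 0.518, turning to -0.14 under TMM scaling).

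Changes among the H4 genes went in both directions. Of 14 genes, 7 were tested, 2 were called lower, 2 higher and 3 neither, with a median log2 fold change of 0.09. Over all tested genes, 38.0% were lower and 46.4% higher, with a median of 0.07. The summed level of the 14 genes was 39.2, 40.8 and 45.4 FPKM in vehicle and 49.3, 53.1 and 48.6 in HR-19011. This was 1.21-fold higher without overlap as deposited, but 1.02-fold with overlapping groups under TMM scaling and 1.31-fold higher in TPM. The other 4 replication-dependent families had lower sums under both of these scalings.

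H4C8 (chr6:26285126-26285534) had the largest change among them. It stood at 8.41, 8.86 and 9.95 FPKM in vehicle and at 18.9, 22.5 and 20.8 in HR-19011, and no library of a group reached the range of the other. The 2.28-fold rise was the largest of any tested member (log2 fold change 1.11, SE 0.0724, limma adjusted p = 6.45e-07), none of its windows are shared, and it was called under every alternative, at 0.87 to 1.27. H4C8 carries the stem-loop form found also in H4C2, H4C5 and H4C11. H4C5 and H4C11 were not called. H4C2 lay below the filter and was lower without overlap, with means of 0.407 FPKM in vehicle and 0.058 in HR-19011. H4C12 stood at 3.32, 4.15 and 4.98 FPKM against 6.32, 5.26 and 5.56, higher without overlap as deposited (log2 fold change 0.39, limma adjusted p = 0.00938) but without a call under TMM scaling (0.144), with quantile normalization (0.212) or without a filter (0.0512). All of its windows are shared, and with its near copy H4C11 it summed to 5.89, 7.09 and 8.36 against 9.92, 7.93 and 8.48 FPKM, with overlap. The near-copy pair H4C14 and H4C15 was lower, at 18.2, 17.5 and 19.1 FPKM against 14.7, 15 and 13.1 in sum (log2 fold changes -0.40 and -0.24). The annotated span of H4C15 holds H2AC19 and H3C15 on the opposite strand. H4C5, H4C9 and H4C11 had vehicle means between 2.36 and 2.96 FPKM, overlapping groups and log2 fold changes of 0.09, 0.22 and 0.04, all 3 of which turned negative with quantile normalization. There H4C11 was called lower (-0.29, limma adjusted p = 0.0239), while H4C9 was called higher in TPM (0.37, 0.0407) and without HR-19011 replicate 1 (0.36, 0.00963).

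**Figure D3:**
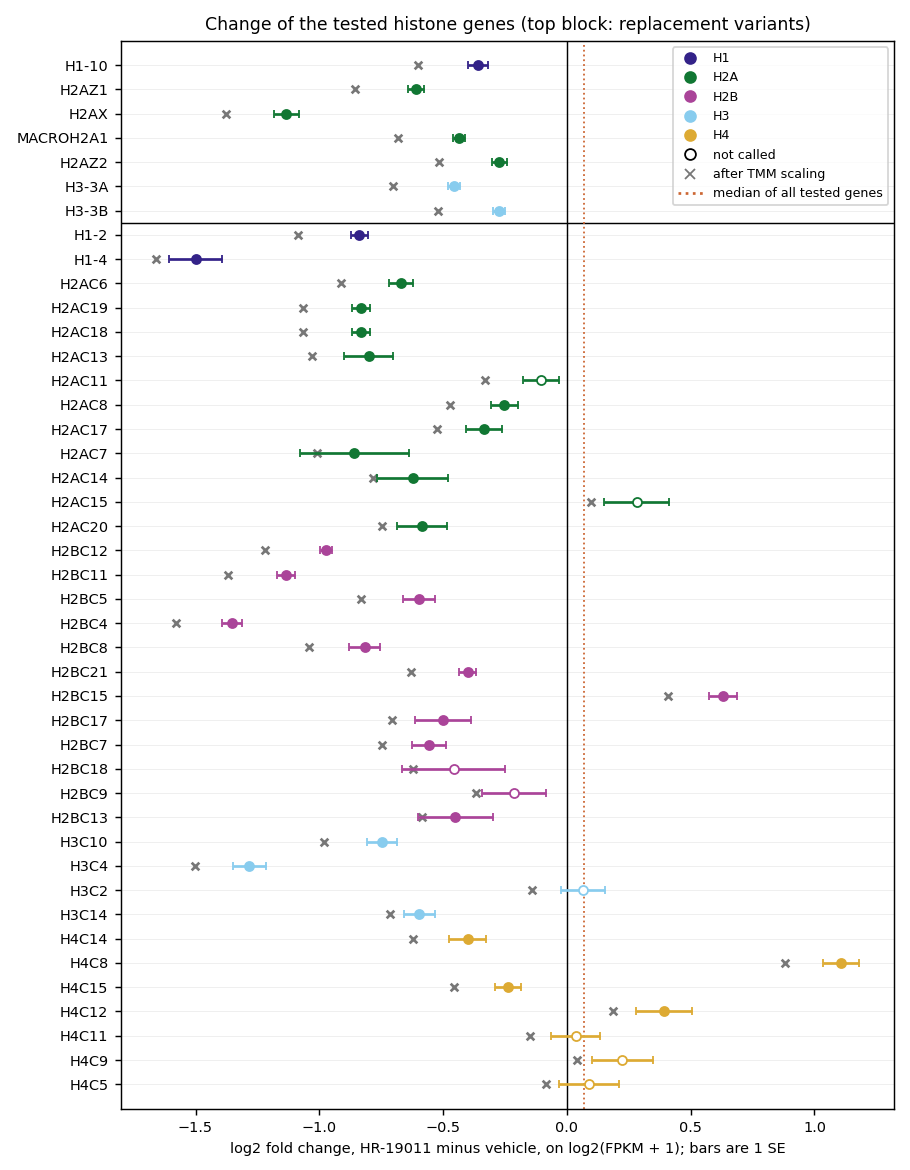
Log2 fold change (HR-19011 minus vehicle) with 1 SE for the 43 tested histone genes, coloured by family, open where limma made no call, with the value after TMM scaling as a cross and the median of all tested genes as a dotted line. All 7 replacement genes lie between -1.13 and -0.27, while the replication-dependent genes reach from -1.50 (H1-4) to 1.11 (H4C8).

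All 7 replacement variants with a measurable level were lower, under TMM, TPM and quantile scaling as well. H2AX, the variant phosphorylated around DNA double-strand breaks, stood at 120, 134 and 124 FPKM in vehicle and at 59.2, 58.4 and 53.2 in HR-19011. It fell 2.21-fold (log2 fold change -1.13, SE 0.0506, limma adjusted p = 5.01e-08), was the only replacement variant past 2-fold on that scale, and is the 1 whose transcripts hold the stem-loop. The amount of any H2AX mRNA that ends at the stem-loop cannot be read from these libraries. The H2AX span lies within that of DPAGT1 on the same strand, and DPAGT1 averaged 38.2 FPKM with vehicle and 37.5 with HR-19011. H2AX made up 19.2% ± 1.29 of the FPKM of the H2A variants (H2AX, H2AZ and macroH2A) in vehicle and 13.5% ± 0.523 in HR-19011, without overlap.

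H2AZ1 (chr4:99948088-99950275), which encodes the H2A.Z found at promoters, was the most abundant replacement variant at 374, 348 and 358 FPKM in vehicle and 239, 237 and 230 in HR-19011. It was 1.53-fold lower (log2 fold change -0.61, limma adjusted p = 1.38e-07). Its paralog H2AZ2 (chr7:44826889-44848126) changed less, from 58.0, 55.3 and 57.7 FPKM to 47.2, 46.1 and 47.7, 1.21-fold lower (log2 fold change -0.27, limma adjusted p = 2.75e-05), though the difference between the paralogs was not tested. MACROH2A1 (chr5:135334381-135399887), whose product carries a large extra domain linked to silent chromatin, stood at 114, 112 and 114 against 84.2, 83.7 and 83.2 FPKM, 1.36-fold lower (log2 fold change -0.44, limma adjusted p = 1.66e-07). In all of these genes the groups were apart.

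The H3.3 variant, laid down at active genes and elsewhere outside replication, is encoded by both H3-3A and H3-3B. H3-3A (chr1:226061831-226072019) stood at 260, 252 and 262 FPKM in vehicle and at 186, 190 and 189 in HR-19011, 1.37-fold lower (log2 fold change -0.45, limma adjusted p = 1.8e-07). H3-3B (chr17:75776434-75779779) stood at 170, 166 and 174 against 142, 140 and 139, 1.21-fold lower (log2 fold change -0.28, limma adjusted p = 7.01e-06). Summed with the processed copy H3P6, which is listed in the files as a gene of its own, H3-3A was 353 ± 12.6 in vehicle and 261 ± 3.50 in HR-19011, 1.35-fold lower. In these poly(A) libraries the replication-dependent genes gave 10.2% ± 0.362 of H3 FPKM in vehicle, and 7.33% ± 0.129 in HR-19011 without overlap. Their share of H2A FPKM, 20.7% ± 0.43 and 20.2% ± 0.379, overlapped between groups. Histone rows outside the symbol rule, chosen after their values were seen, included CENPA, the centromeric H3 variant, with means of 16.7 and 15.8 FPKM (limma adjusted p = 0.177), and H2AW, an H2A gene outside the large clusters, at 30.4 and 29.9 (limma adjusted p = 0.698). Neither was called as deposited, and both were called lower under TMM scaling. The other 5 tested histone rows outside the rule (H2BS1, H3P6, H3P16, H2BC19P and H2BC20P) were called lower, at log2 fold changes from -0.88 to -0.32.

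The remaining 35 members lay below 1 FPKM on average and were not tested, 29 of them replication-dependent, 3 replacement and 3 germline. Of these, 8 were listed at 0 in all 6 libraries (H2AC1, H2BC10, H3C11, H4C6, H4C7, H4C13, MACROH2A2 and the oocyte linker H1-8). In 12 of the 35, all replication-dependent, every HR-19011 library lay below every vehicle library: H1-3, H1-5, H2AC12, H3C1, H3C7, H3C12, H3C13, H3C15, H4C1, H4C2, H4C3 and H4C4. Over all 34571 genes below the filter this held for 2.26% (5.38% of the 14518 above 0 in any library), and the reverse for 12.2% (29.2%). Among them H4C4 stood at 1.07, 0.833 and 1.07 FPKM against 0.382, 0.529 and 0.537, and H3C12 at 0.530, 0.719 and 0.821 against 0.187, 0.318 and 0.305. Of the 35, the reverse held in H1-7 alone, a spermatid linker, at 0, 0 and 0.00231 FPKM in vehicle and 0.0510, 0.0409 and 0.0359 in HR-19011. H1-6, H2AC4, H2AC16, H2AC21, H2BC3, H2BC6, H3C3 and H3C6 were above 0 in all libraries of at least 1 group and overlapped between groups, with H2AC16 reaching 1.08 FPKM in 1 vehicle library. H2AJ, a replacement H2A, was at most 0.0148 FPKM.

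Changes were also laid out along the histone clusters. Members separated by less than 100 kb were taken as 1 cluster. For comparison, 38.0% of all tested genes were called lower and 46.4% higher. On chromosome 1 (chr1:149782689-149887965), 7 of 8 tested genes were lower and H2BC18 had no call, with a median log2 fold change of -0.52. The largest cluster on chromosome 6 (chr6:26017032-26285534) held 32 members, of which 14 were tested. There 10 were lower, 3 (H2BC9, H3C2 and H4C5) had no call, and H4C8, the member at its end farthest along the chromosome, was higher. In the small cluster at chr6:27132316-27147562, H2BC11 and H2BC12 were lower while H2AC11 and H4C9 had no call. The H4C9 span lies wholly within that of the far more abundant H2BC12, on the opposite strand. The part of this overlap in the H4C9 values was not tested. In the cluster at chr6:27807479-27893891, 6 of 10 tested were lower. The other 4, H4C11, H4C12, H2AC15 and H2BC15, follow each other among its tested genes, 2 of them called higher and 2 without a call.

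**Figure D4:**
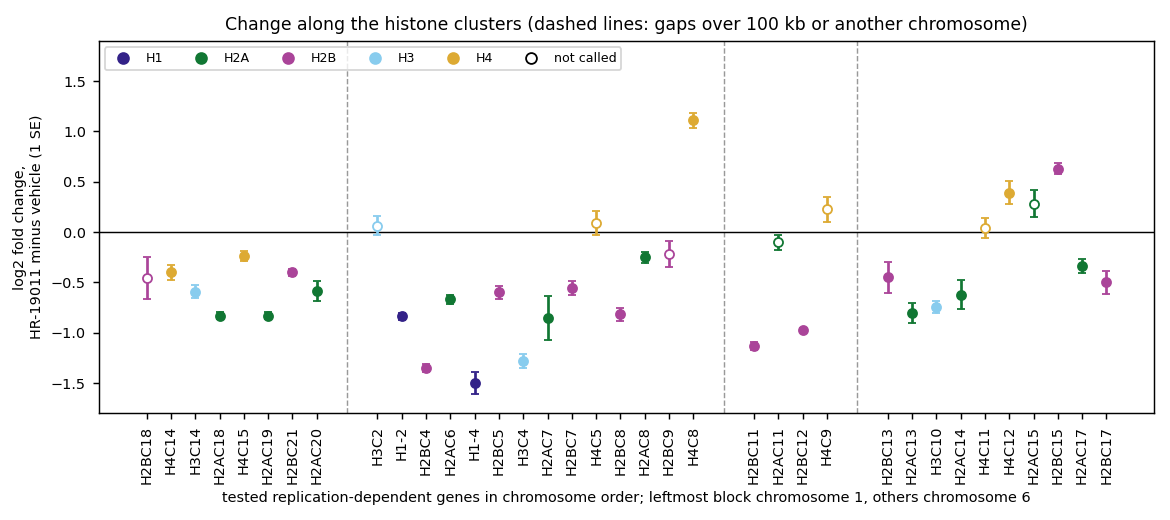
Log2 fold change (HR-19011 minus vehicle, 1 SE) of the 36 tested replication-dependent genes in chromosome order, coloured by family and open where not called. The 8 genes on chromosome 1 all lie below 0, and the genes above 0 are spread over the 3 clusters on chromosome 6, with H4C8 at 1.11 and H2BC15 at 0.63 highest.

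Many H2A and H2B genes face each other across a shared upstream region, and partners did not always change alike. H2BC11 and H2AC11, whose starts lie 248 bases apart, had log2 fold changes of -1.13 and -0.10, the second without a call. H2BC4 and H2AC6, 246 bases apart, were both lower at -1.35 and -0.67, and H2BC8 and H2AC8, 233 bases apart, at -0.82 and -0.25. In the pair with 194 bases between starts, H2BC15 was higher at 0.63 and H2AC15 stood at 0.28 without a call. Pairs with both partners lower were also H2AC17 with H2BC17 (-0.34 and -0.50), H2BC21 with H2AC20 (-0.40 and -0.58), H2BC13 with H2AC13 (-0.45 and -0.80) and H2AC7 with H2BC7 (-0.86 and -0.56). The differences within pairs were not tested.

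The 120 bases before the start are shown for an H2B gene that fell and for the H2B gene that rose, from the RefSeq promoter table on GRCh38, 5′ to 3′ on the strand of the gene. Capitals mark matches, on either strand, to the octamer ATTTGCAT bound by POU2F1, to CCAAT and to TATAAA. H2BC11 is on the minus strand (chr6:27132796-27132915) and H2BC15 on the plus strand (chr6:27838449-27838568).
H2BC11: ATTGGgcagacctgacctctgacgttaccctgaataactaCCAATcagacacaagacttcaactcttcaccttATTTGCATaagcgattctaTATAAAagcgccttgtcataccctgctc
H2BC15: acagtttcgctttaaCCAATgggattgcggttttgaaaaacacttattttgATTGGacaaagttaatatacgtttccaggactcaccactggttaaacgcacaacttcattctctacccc

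The RefSeq table held a promoter, 250 bases before to 50 after the start, for 72 of the 78 members. The octamer lay in 82.4% of replication-dependent H2B promoters (14 of 17) and 73.3% of H2A promoters (11 of 15), in 1 of 11 H3 promoters and in no H1 or H4 promoter, against 1.80% of 27305 promoters in the table. That H3 promoter, listed for H3C4, is the same stretch as the promoter of H2AC7. Promoters of facing H2A and H2B genes overlap, so 1 octamer can be counted for both partners. CCAAT was in all H1, H2A, H2B and H3 replication-dependent promoters but in 3 of 12 H4 promoters (25.0%), against 35.7% in the table, and TATAAA was in 68.3% of replication-dependent promoters against 12.0%. The E-box CACGTG was in none of the 72, against 7.43%. No motif contains another, and a match is not evidence of binding. Among the 36 tested replication-dependent genes, those with the octamer comprised 14 lower, none higher and 3 without a call (median log2 fold change -0.58), and those without it 11 lower, 3 higher and 5 without a call (median -0.40). With CCAAT, 23 of 30 were lower and 1 higher, and without it 2 of 6 were lower and 2 higher. With TATAAA, 19 of 23 were lower and 1 higher, and without it 6 of 13 were lower and 2 higher. Over all tested genes, 38.0% were called lower and 46.4% higher. Motif and family go together here, and the counts by motif were not tested. H2BC15 lacked the octamer and TATAAA. H2BC5 and H2BC13 also lacked the octamer, and H2BC7 also lacked TATAAA, but these genes were called lower.

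Genes that make histone mRNA and form its 3′ end were measured beside the members. Of 30 on that list 29 were tested, 22 were lower, 4 higher and 3 neither, with a median log2 fold change of -0.37, against 38.0% lower and 46.4% higher over all tested genes. SLBP, which binds the stem-loop and accumulates in S phase, stood at 61.2, 63.0 and 69.0 FPKM in vehicle and at 25.8, 26.0 and 28.6 in HR-19011, 2.40-fold lower without overlap (log2 fold change -1.23, limma adjusted p = 4.35e-08). NPAT, the coactivator of histone gene transcription, had no call at 5.30, 5.02 and 5.22 against 4.73, 5.00 and 5.04 FPKM (log2 fold change -0.06, limma adjusted p = 0.233), though it was called lower under TMM scaling (limma adjusted p = 0.000408). CCNE1, the cyclin whose kinase activates NPAT, fell 2.92-fold from a mean of 20.8 to 7.14 FPKM (log2 fold change -1.43). Among the U7 snRNP proteins, which direct the cut after the stem-loop, LSM11 rose from 2.49 to 4.14 FPKM (0.56) and LSM10 was lower at 47.1 and 42.2 (-0.16, lost with TPM and quantile normalization). ZNF473, a U7-associated zinc finger protein, and CASP8AP2 (FLASH), a partner of the U7 complex, were lower at -0.50 and -0.28. SRRT (ARS2) fell 2.07-fold and UPF1, needed for histone mRNA decay, 1.73-fold, while the uridylyltransferase gene TUT7 (0.41) and NELFE (0.52) were higher. ERI1, the exonuclease that trims the stem-loop end, had no call as deposited (-0.07, limma adjusted p = 0.107) and was called lower under TMM scaling.

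Histone chaperones, which carry histones to DNA and off it, numbered 35, all tested: 26 were lower, 5 higher and 4 neither, with a median of -0.33, against 38.0% lower and 46.4% higher over all tested genes. In TPM the counts were 21 lower and 8 higher, against 32.1% lower and 6269 of 11856 higher over all tested genes. NASP, the carrier of soluble H3 and H4, stood at 132, 130 and 136 FPKM in vehicle and at 74.6, 75.5 and 75.4 in HR-19011, 1.76-fold lower (log2 fold change -0.81, limma adjusted p = 6.15e-09). CHAF1A and CHAF1B, subunits of the replication-coupled chaperone CAF-1, were lower at -0.79 and -0.71. HIRA, which deposits H3.3 outside replication, was lower at -0.50, and its partner UBN2 rose from 3.79 to 7.01 FPKM (0.74). DAXX and ATRX, the other H3.3 pathway, stood at -0.09 and -0.15. The value for DAXX (limma adjusted p = 0.0322) turned positive in TPM and with quantile normalization, ATRX had no call in TPM, and the calls were lost when 5 (DAXX) and 4 (ATRX) of the 6 libraries were each left out in turn, at adjusted p from 0.0658 to 0.121 for DAXX and 0.0694 to 0.0854 for ATRX. ASF1A and ASF1B, which hand H3 and H4 to both pathways, had no call as deposited (14.2 and 14.3 FPKM, and 28.2 and 28.7), were called higher in TPM and lower under TMM scaling. NCL, which encodes nucleolin, fell 2.94-fold and the importin IPO4 2.66-fold, whereas NAP1L1 (0.39), EP400 (0.41) and HJURP (0.28, no call under TMM scaling) were higher.

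The S-phase list, 39 genes of DNA replication and nucleotide supply, comprised 36 lower, 1 higher and 2 without a call, with a median log2 fold change of -0.76, where 38.0% of all tested genes were lower and 46.4% higher. UNG, which removes uracil from DNA, fell 3.82-fold from a mean of 39.0 to 10.2 FPKM, MCM4, a subunit of the replicative helicase, 2.54-fold, and TYMS, the source of thymidylate, 2.53-fold. RFC1, the large clamp loader subunit, was higher (0.37). The medians of the tested replication-dependent and replacement histone genes were -0.53 and -0.44. The order of the 3 medians depended on the setting: they were -0.72 for the list, -0.74 and -0.28 with quantile normalization, and -0.65, -0.27 and -0.42 with a pseudocount of 5. S-phase fraction was not measured, and its part in the histone values was not tested.

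**Figure D5:**
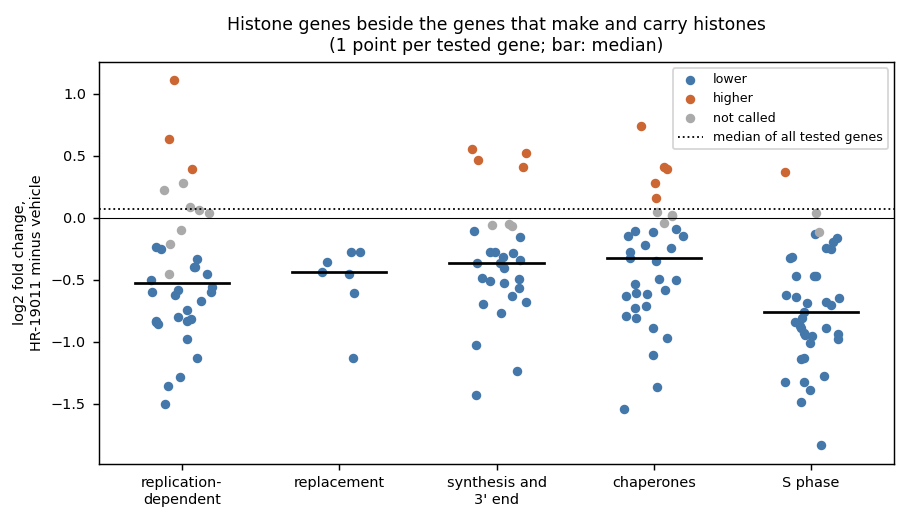
Log2 fold change (HR-19011 minus vehicle) of each tested gene in both histone classes and in the 3 lists beside them, coloured by call, with bars at the medians and the median of all tested genes dotted. Medians run from -0.76 for the S-phase genes to -0.33 for the chaperones, and the highest histone gene is H4C8 at 1.11.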

How the data were processed

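RNA of the 6 K562 samples was TRIzol-extracted and a stranded mRNA kit was used, per the labels' protocols. Trimmomatic 0.38, HISAT, SAMtools 1.9, HISAT2 2.1.0, DESeq2 1.24.0, Bowtie2, StringTie 2.1.3b and the GRCh38 build are listed, with no roles, in the submitters' processing notes. The authors deposited FPKM per gene, per the file headers. Whole reads could not be recovered: even the best of 1000 candidate steps put only 29.8% to 34.1% of the values of a library within 0.1 of whole multiples, so depth is unknown.

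Groups came from sample titles. The 11856 genes averaging at least 1 FPKM were tested by limma 3.58.1 (R 4.3.3) after adding 1 and taking log2, with group alone in the model, a variance trend, a two-sided moderated test, Benjamini-Hochberg adjustment over all tested genes and a threshold of 0.05. Folds without "log2" are ratios of mean FPKM. Within groups, libraries correlated at r = 0.997 to 0.998 across genes, and at most 0.0227% of values above 0 were identical between libraries of a group, so none is a duplicate.

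Members, classes, lists and tests were chosen with earlier results of these data known. Every member over the filter is named, others where above 0 throughout a group, except 1 member that is not reported here; from each list, the 3 smallest p-values per direction and 17 genes given by name. Stem-loops were searched in GENCODE release 29 transcripts, and motifs in RefSeq promoters; all 78 members matched a GENCODE transcript and a RefSeq position. The counts of each class and list, the summed class levels, and the tested members and named list genes were recomputed, as far as each setting applies, with pseudocounts of 0.1 and 5, without a filter or at 5 FPKM, with TMM (trimming 30% of log ratios and 5% of means), TPM, quantile normalization, no trend, coding genes alone, a threshold of 0.01, a replicate block, and each library left out.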

Additional observations from a re-analysis of the deposited data

How the results depend on the processing

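Alternatives were run for the counts of each class and list, for both summed class levels, and for the tested members and named list genes. Counts by family, cluster and motif, and genes outside the symbol rule and lists, were not run under all of them. Counts of calls over all tested genes, 4503 lower and 5506 higher, became 8828 higher without a filter and 3347 higher at a mean of at least 5 FPKM. Replication-dependent lower calls (25) fell to 16 at that stricter filter, which leaves 19 such genes. They fell to 14 without the genes sharing at least 50% of their windows, an alternative chosen after seeing the data. Higher calls went from 3 to 5 in TPM. Chaperone genes called higher (5) became 3 under TMM and 8 in TPM, and S-phase genes called higher (1) became 2 in TPM and with quantile normalization. The replication-dependent sum was 2.09-fold lower under TMM and 1.62-fold in TPM, and the replacement sum 1.71-fold and 1.32-fold.

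Some log2 fold changes turned sign. Under TMM, H3C2 stood at -0.14, H4C11 at -0.15, H4C5 at -0.0857, ASF1A at -0.219 and ASF1B at -0.216. With quantile normalization, H4C9 stood at -0.0997, H2AC15 at -0.0388, H3C2 at -0.18, H4C11 at -0.29, H4C5 at -0.249, ASF1A at -0.0308 and DAXX at 0.068. In TPM, H2AC11 stood at 0.0114, DAXX at 0.0342, ERI1 at 0.047 and NPAT at 0.0469. With a library left out, H3C2 ranged from -0.04 to 0.122, H4C11 from -0.0579 to 0.109, H4C5 from -0.0451 to 0.222, ASF1A from -0.0253 to 0.0645 and ASF1B from -0.00377 to 0.0478. The cause was not tested. In the same runs, replication-dependent genes gave 24 to 27 lower and 3 to 4 higher calls, replacement genes 7 lower, and the sums ratios of 1.74 to 1.78 and 1.43 to 1.45.

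The replicate number as a block gave 4445 lower and 5435 higher calls, 25 and 4 among replication-dependent genes (H2AC15 added, limma adjusted p = 0.0051) and 7 lower among replacement genes. Chaperone lower calls went from 26 to 23, with DAXX and ATRX among those lost (limma adjusted p = 0.0569 and 0.0551), and lower calls in the 3′ end list from 22 to 21. Deviations of same-numbered libraries correlated at -0.108 to -0.00448, and those of differently numbered libraries at -0.0338 to 0.0697. These values show no effect shared by number, but cannot tell whether same-numbered libraries were handled together. Without known depth, counting error could not be computed, and it weighs most on values under 1 FPKM.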
